A study of Mus musculus with 2 samples.

Results

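The Ly49 receptors are a family of killer cell lectin-like receptors that mouse NK cells and some T cells carry on their surface, and 7 genes of the family, Klra1, Klra3, Klra4, Klra6, Klra7, Klra8, and Klra9, are described here. They were taken by name from the 20299 genes of the deposited matrix, in which 11 symbols begin with Klra, and all 7 had UMIs (unique molecular identifiers, each of which counts 1 captured transcript) in both libraries. The cells came from kidneys of C57BL/6 mice aged 8 weeks with nephrotoxic serum nephritis (NTN), in which mice primed with 200 µg of sheep IgG in an adjuvant receive sheep serum against the glomerulus 4 days later. Each genotype had 1 library, WT and Vsir-/-, the latter without the T cell checkpoint protein VISTA. The labels describe the WT library as sorted CD45+ cells and the Vsir-/- library as cells of the whole kidney, whereas the methods of the study describe a CD45+ sort, so genotype, library, and sort cannot be told apart. The number of mice pooled in a library is not given in the sources used here, and the kind of deletion is given only as Vsir-/-.

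Each Ly49 receptor is a membrane protein that pairs with a second copy of itself and binds MHC class I molecules or related proteins of viruses. Inhibitory members carry a tyrosine motif (ITIM) in the cytoplasm that recruits phosphatases, and activating members lack it and signal through the adaptor DAP12 (gene Tyrobp). An NK cell expresses only some of the genes, and the set differs from cell to cell, which gives the population a mixed repertoire. Klra1 (Ly49A), Klra3 (Ly49C), Klra6 (Ly49F), Klra7 (Ly49G), and Klra9 (Ly49I) encode inhibitory receptors, and Klra4 (Ly49D) and Klra8 (Ly49H, which recognizes a cytomegalovirus protein) encode activating ones.

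This division can be read in the first 45 bases of each coding sequence, which are shown because NK and EM-like T cell clusters below differ along it. They are from GENCODE M21 transcripts, 5′ to 3′, and the capitals mark bases 22 to 24 of the coding sequence, where the ITIM of the inhibitory receptors has its tyrosine codon.
Klra1: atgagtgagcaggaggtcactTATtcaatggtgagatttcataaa
Klra3: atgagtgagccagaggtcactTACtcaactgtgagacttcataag
Klra6: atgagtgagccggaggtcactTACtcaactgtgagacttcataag
Klra7: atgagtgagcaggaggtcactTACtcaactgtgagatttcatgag
Klra9: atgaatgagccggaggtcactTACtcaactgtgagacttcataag
Klra4: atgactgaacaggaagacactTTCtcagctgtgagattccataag
Klra8: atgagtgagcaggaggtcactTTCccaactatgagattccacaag
The 5 inhibitory genes have a tyrosine codon, TAT or TAC, at these bases, and the 2 activating genes have the phenylalanine codon TTC.

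The genes lie next to each other on chromosome 6, in the order Klra6, Klra4, Klra8, Klra9, Klra7, Klra3, Klra1 (GRCm38.p6, with Klra10 between Klra7 and Klra3), and most of them share a word in the promoter. The longest word common to the upstream sequences of 6 of the 7 genes had 11 letters, TTTCCTCTTTT, and was chosen from these promoters themselves. It was in 7 of the 9 member promoters of 300 bases in the RefSeq table (GRCm38.p6) and, on either strand, in 0.149% of all 32851 promoters (49 promoters). The windows of 59 bases below, 1 for each of these 6 genes, are on the minus strand, end before the annotated start, and have the word in capitals.
Klra6, chr6:130027055-130027113: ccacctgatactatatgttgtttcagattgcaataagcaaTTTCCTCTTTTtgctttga
Klra9, chr6:130193132-130193190: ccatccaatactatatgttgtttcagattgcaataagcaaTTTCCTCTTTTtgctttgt
Klra3, chr6:130337627-130337685: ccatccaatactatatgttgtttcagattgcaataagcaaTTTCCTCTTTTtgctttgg
Klra7, chr6:130233393-130233451: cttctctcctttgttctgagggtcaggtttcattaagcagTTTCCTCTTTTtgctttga
Klra4, chr6:130067332-130067390: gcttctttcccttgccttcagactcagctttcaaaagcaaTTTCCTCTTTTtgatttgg
Klra8, chr6:130129960-130130018: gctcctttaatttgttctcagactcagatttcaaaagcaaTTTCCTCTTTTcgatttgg
The word was not in the promoter of Klra1. Reads of such similar genes could be assigned to more than 1 of them. Of all stretches of 91 bases, the length of the read, in the last 500 bases of the transcripts, none of those of Klra1, Klra4, Klra6, and Klra8 occurred in a transcript of another Klra gene, against 4.85% for Klra3, 6.27% for Klra7, and 11.8% for Klra9.

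There were 5470 WT cells (32799550 UMIs) and 1844 Vsir-/- cells (18601189 UMIs), and 5 cell barcodes occurred in both libraries. Vsir itself had 4278 UMIs in the WT and 8 in the Vsir-/- library. The 7 genes together had 17376 and 1459 UMIs, respectively. Levels are given as CPM, the UMIs of a gene per 1000000 UMIs of the same cells, and they were not divided by gene length because 3′ libraries count transcripts at their ends. Intervals are at the 95% level and cover counting error only (exact Poisson for levels, exact Clopper-Pearson for shares of cells, and exact conditional for ratios). Those of levels and ratios leave out the spread between cells, of which 1 can hold many UMIs. With 1 library per genotype, no test between genotypes could be made.

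NK cells held most of the Ly49 transcripts, with 63.3% of the UMIs of the family in WT mice and 67.0% in Vsir-/- mice. In WT mice, the summed level was highest in NK cells at 2926 CPM (interval 2871 to 2981, 594 cells), followed by EM-like (effector memory-like) CD8+ T cells at 2539 CPM (2431 to 2650.0, 197 cells) and the cluster that the authors named NKT at 1598 CPM (1484 to 1717, 94 cells). Proliferating cells followed at 769 CPM (118 cells) and EM-like CD4+ T cells at 419.6 CPM (489 cells). Down to neutrophils (50.4 CPM), no neighbors in this order had overlapping intervals. From non-EM-like CD8+ T cells (27.9 CPM) down to ILC2 (2.48 CPM) each interval overlapped that of the next cluster. The 46 cells of the γδ T cluster had no UMI of the family (interval up to 13.1 CPM).

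In Vsir-/- mice, NK cells again led at 1927 CPM (1808 to 2052, 67 cells), but EM-like CD8+ T cells were at 145 CPM (92.6 to 215, 28 cells) and did not differ beyond their intervals from EM-like CD4+ T cells at 139 CPM (121 to 158, 244 cells). No cell of this library was in the NKT cluster.

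**Figure D1:**
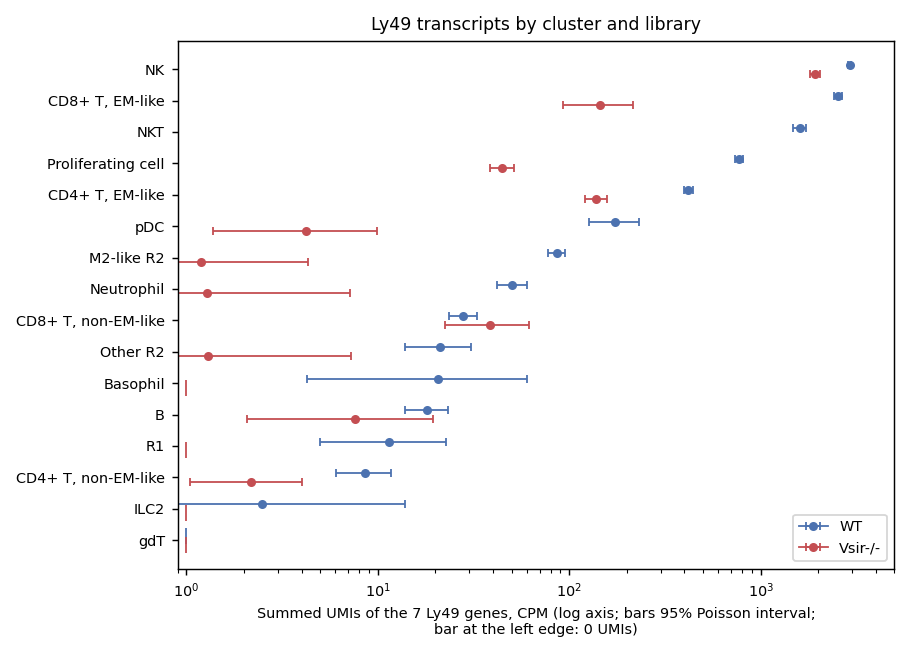
Summed level of the 7 Ly49 genes (CPM, log axis) in each cluster named by the authors, for the WT library (blue) and the Vsir-/- library (red). Points are levels with exact Poisson intervals, and marks at the left edge stand for 0 UMIs. NK cells led in both libraries, and EM-like CD8+ T cells were at 2539 CPM in WT mice and 145 CPM in Vsir-/- mice.

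The labels of these clusters were checked against markers. In the NK cluster, Ncr1 (NKp46) was found in 92.6% of cells in the WT and 95.5% in the Vsir-/- library. A T cell transcript (Cd3d, Cd3e, Cd3g, Trac, Trbc1, or Trbc2) was found in 85.0% and 76.1% of them. These were mainly of the receptor constant regions Trbc1 (69.2% of WT cells) and Trbc2 (53.0%). Cd3e, which T cells need for their receptor, was in 11.3% of WT cells and in none of the 67 Vsir-/- cells. Cd3d was in more cells, 21.4% of WT and 7.46% of Vsir-/- cells. No UMI of Cd3d, Cd3e, or Cd3g was found in 424 WT and 60 Vsir-/- cells of the NK cluster. Of the transcripts that define invariant NKT cells, Zbtb16 had 2 UMIs in the NKT cluster and Traj18 had 0. Traj18 also had 0 UMIs in the NK, EM-like CD8+, and B clusters of both libraries. In the EM-like CD4+ cluster it had 3 UMIs in 3 WT cells (1.07 CPM) and 0 in Vsir-/- cells. The interval of its 0 UMIs in the NKT cluster reached 8.00 CPM, above that WT level. Its absence from the NKT cluster therefore cannot decide whether these are invariant NKT cells. The B cell gene Cd79a was found in 67.0% of cells in the NKT cluster, and the median cell had 2745.5 UMIs. The part of mixed cells in the Ly49 level of this cluster was not tested. The EM-like CD8+ cluster had a T cell transcript in all 225 cells of both libraries, but Cd8a or Cd8b1 in only 52.8% of WT and 53.6% of Vsir-/- cells. A γδ T cell transcript (Trdc, Tcrg-C1, or Trdv4) was in 28.4% of its WT cells (431 CPM) and 21.4% of its Vsir-/- cells (313 CPM). In WT NK cells the values were 33.0% and 76.4 CPM. The part of γδ T cells in the Ly49 level of the EM-like CD8+ cluster was not tested.

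Ly49 UMIs were also found in cells that should lack the receptors, and Ly49 shares of cells at or below these values are read as background. In WT mice, 4.33% of B cells (median of 3426 UMIs per cell) and 4.96% of neutrophils (median of 3565 UMIs) had a UMI of the family, and in Vsir-/- mice 3.41% and 0.633% did (medians of 3597 and 4097 UMIs). In M2-like R2 macrophages of WT mice, 378 UMIs were found (86.0 CPM, 69 of 456 cells), and 44.7% of them belonged to the activating pair, close to the 43.9% in WT NK cells. In Vsir-/- mice, the same macrophages had 2 UMIs. Klra3 made up 20.4% of the WT macrophage UMIs and 11.8% of those in WT NK cells. The share of the activating pair was 14.4% (interval 8.76 to 21.8) in WT neutrophils and 42.9% (30.5 to 56.0) in WT B cells. Whether these UMIs came from free RNA or from doublets was not tested.

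In NK cells of WT mice, all 7 members were well represented. Klra8 was the highest at 732 CPM (2751 UMIs, in 58.1% of cells), followed by Klra7 at 643 CPM (2417 UMIs, 61.8%), Klra4 at 552 CPM (2073 UMIs, 42.3%), Klra9 at 438 CPM (1646 UMIs, 52.4%), Klra3 at 344 CPM (1294 UMIs, 39.2%), Klra1 at 160.2 CPM (602 UMIs, 16.8%), and Klra6 at 56.7 CPM (213 UMIs, 13.1%). The activating pair made up 43.9% of the Ly49 UMIs. The mean number of UMIs per positive cell ran from 2.73 for Klra6 to 8.26 for Klra4, and Klra1, found in few cells, had 6.02, above Klra3 (5.55) and Klra9 (5.29).

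EM-like CD8+ T cells of WT mice reached a similar sum almost without the activating pair. Klra7 was the highest at 1067 CPM (878 UMIs, in 56.9% of cells), followed by Klra1 at 640.2 CPM (527 UMIs, 45.7%), Klra9 at 469 CPM (386 UMIs, 45.7%), Klra6 at 207 CPM (170 UMIs, 38.6%), and Klra3 at 131 CPM (108 UMIs, 17.8%). Klra8 was at 18.2 CPM (15 UMIs, 9 cells) and Klra4 at 7.29 CPM (6 UMIs, 2 cells). The activating pair thus had 21 of 2090 Ly49 UMIs in these cells, or 1.0%.

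Compared with NK cells of the same library, EM-like CD8+ T cells had higher Klra1 (log2 ratio 2.00, interval 1.83 to 2.17) and Klra6 (1.87, 1.57 to 2.16) and lower Klra3 (−1.39, −1.69 to −1.11), Klra8 (−5.33, −6.17 to −4.60), and Klra4 (−6.24, −7.69 to −5.12). Klra9 did not differ beyond counting error (0.10, −0.07 to 0.26). At a limit of 2-fold, 2 of 7 members were higher and 3 were lower, where 4.83% of the 8937 genes with at least 20 UMIs were higher and 5.06% were lower. Klra4 and Klra8, with 6 and 15 UMIs in EM-like CD8+ T cells, passed the filter of 20 UMIs only with their NK counts, so their lower calls are not independent of the filter. The authors clustered the cells on these same transcripts, so these differences describe the clusters. The inhibitory members summed to 2513 CPM in the EM-like CD8+ cluster against 1642 CPM in NK cells, and the activating pair to 25.5 against 1283 CPM.

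EM-like CD4+ T cells also had few transcripts of the activating pair, at a lower level of the family, and their inhibitory members were mixed in other shares. Of the Ly49 UMIs in WT mice, Klra7 made up 30.4% (interval 27.8 to 33.2) in the CD4+ and 42.0% (39.9 to 44.2) in the CD8+ cluster, and Klra9 27.9% (25.3 to 30.5) and 18.5% (16.8 to 20.2). In these CD4+ cluster cells of WT mice, Klra7 was at 128 CPM (358 UMIs), Klra9 at 117 CPM (328 UMIs), Klra1 at 101 CPM (282 UMIs), Klra3 at 35.7 CPM (100 UMIs), and Klra6 at 33.9 CPM (95 UMIs), and the activating pair had 13 UMIs, or 1.11% of the family. The activating pair had 4 of 219 UMIs, or 1.83%, in Vsir-/- mice. Compared with NK cells, 5 of 7 members were at least 2-fold lower in WT mice and 0 higher, where 4.67% of all genes were lower and 8.59% higher. Klra4 and Klra8, with 4 and 9 UMIs in the WT CD4+ cluster, passed the filter of 20 UMIs through their NK counts and could only be called lower. Despite the name of the cluster, few of the Ly49 transcripts were in cells with Cd4. In the 92 WT cells with Cd4 and no Cd8a or Cd8b1 the sum was 70.4 CPM, in the 93 cells with Cd8a or Cd8b1 and no Cd4 it was 631 CPM, and in the 294 cells with neither it was 499.6 CPM. The corresponding Vsir-/- levels were 1.92, 148, and 234 CPM, and the first rests on 1 UMI in 76 cells.

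Non-EM-like CD8+ T cells had another mixture. Of 141 UMIs in WT mice, 58 (41.1%) were of Klra3, which made up 11.8% of those in NK cells and 5.17% of those in the EM-like CD8+ cluster. The transcripts were in 55 of 659 cells (8.35%). After thinning, in which 1000 UMIs were sampled from each cell so that depth was equal, they were in 2.28%, against 1.27% of B cells, with overlapping intervals. All 7 members were at least 2-fold lower than in NK cells and 0 higher, where 18.7% of all genes were lower and 7.02% higher. Klra1, Klra4, Klra8, and Klra9 had 13, 4, 11, and 9 UMIs in these WT cells. They passed the filter of 20 UMIs through their NK counts and could only be called lower. The Vsir-/- cells had 17 Ly49 UMIs in 5 of 50 cells, and 5 of these UMIs were of Klra6. Of the 3 members with at least 20 UMIs in this cluster, 1 was higher and 1 lower than in WT mice. Over all genes, 11.1% were higher and 9.66% lower. Klra3, Klra6, and Klra7 passed this filter through their WT counts, with 2, 5, and 3 Vsir-/- UMIs. The NKT cluster resembled NK cells more than EM-like T cells in its mixture, with 33.8% of its Ly49 UMIs from the activating pair, and 4 of 7 members were at least 2-fold lower than in NK cells and 0 higher, where 6.71% of all genes were lower and 6.9% higher.

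Proliferating cells held 1547 Ly49 UMIs in WT mice, nearly all in cells with a T cell transcript and the NK genes Ncr1 or Klrb1c (NK1.1), in which 72 cells had 1503 UMIs (1125 CPM). Among Vsir-/- cells, 10 such cells had 181 of 199 UMIs (909 CPM). All 7 members were at least 2-fold lower in the Vsir-/- cluster, where 9% of all genes were lower and 37.5% were higher. Klra1, Klra3, and Klra6, with 2, 2, and 0 Vsir-/- UMIs, passed the filter of 20 UMIs through their WT counts. These members could thus only be called lower. In the Vsir-/- cluster, 123 of 189 cells had no T cell transcript, against 4 of 118 WT cells. The part of this difference in the Ly49 level was not tested.

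**Figure D2:**
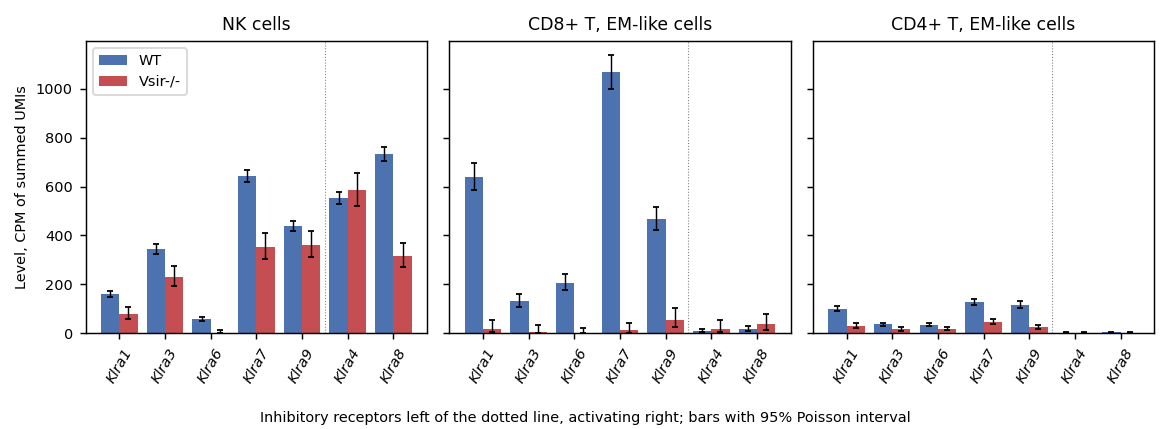
Level of each Ly49 gene (CPM of summed UMIs) in NK, EM-like CD8+ T, and EM-like CD4+ T cells of the WT library (blue) and the Vsir-/- library (red), with exact Poisson intervals. Inhibitory receptors are left of the dotted line and activating receptors right of it. Klra4 and Klra8 stood out in NK cells only, and in EM-like CD8+ T cells Klra7 was at 1067 CPM in WT mice and 12.0 CPM in Vsir-/- mice.

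In NK cells, the family as a whole was lower in Vsir-/- mice than in WT mice, with a log2 ratio of −0.60 (interval −0.70 to −0.51), but the members moved unevenly. Klra4, the activating Ly49D, had 297 UMIs at 586 CPM in Vsir-/- mice and 552 CPM in WT mice, and over the whole cluster the ratio did not differ from equality beyond counting error (log2 ratio 0.09, −0.09 to 0.26). Klra9 was at 361 CPM and 438 CPM (−0.28, −0.51 to −0.06), and Klra3 at 231 CPM and 344 CPM (−0.58, −0.86 to −0.30). Larger differences were found for Klra7 at 353 CPM and 643 CPM (−0.86, −1.09 to −0.65), Klra1 at 78.9 CPM and 160.2 CPM (−1.02, −1.52 to −0.56), and Klra8, the activating Ly49H, at 316 CPM and 732 CPM (−1.21, −1.45 to −0.98). The Klra8 level was thus above that of Klra4 in WT NK cells and below it in Vsir-/- NK cells.

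Klra6 had 1 UMI in 1 of 67 Vsir-/- NK cells and 213 UMIs in 78 of 594 WT NK cells (log2 ratio −4.84, −10.15 to −2.35). The gene was not silent in the Vsir-/- library, in which it had 34 UMIs, 28 of them in 9 EM-like CD4+ T cells. At the limit of 2-fold, 3 of 7 members (Klra1, Klra6, and Klra8) were lower in Vsir-/- NK cells and 0 were higher. Of the 8963 genes tested, 7.01% were lower and 9.86% were higher. Klra6 passed the filter of 20 UMIs through its WT count and could only be called lower. The median log2 ratio was −0.86 over the members and 0.07 over all genes.

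This difference depended on how the cells were weighed. Thinned to 1000 UMIs per cell, the log2 ratio of the sum was −0.34, and as a mean over single cells it was −0.39. In cells with no T cell transcript (89 WT and 16 Vsir-/- cells), the ratio was −1.31, with 4282 CPM in WT mice and 1725 CPM in Vsir-/- mice, and Klra8 was at 1289 and 135 CPM. Klra4 also differed beyond counting error in these cells, unlike in the whole cluster, at 755 and 405 CPM (log2 ratio −0.90, −1.42 to −0.41). Its Vsir-/- level rested on 39 UMIs in the 16 cells. Klra9 was at 778 and 416 CPM (−0.90, −1.42 to −0.42). Without cells that had a Cd3d, Cd3e, or Cd3g UMI, the ratio of the sum was −0.58. Klra6 was then at 54.1 and 2.38 CPM in WT and Vsir-/- mice and Klra8 at 808 and 356 CPM. Klra4 and Klra9 did not differ beyond counting error in these cells. The log2 ratio of Klra1 was −0.51 (−1.65 to 0.48) in cells with no T cell transcript and −0.82 (−1.36 to −0.32) in cells with no Cd3d, Cd3e, or Cd3g UMI. In both groups of cells, and without the cell with the most Ly49 UMIs in each library, 2 of 7 members were at least 2-fold lower in place of 3. The share over all genes was not counted there. Kidney tubule transcripts were at 2541 CPM in Vsir-/- and 3.19 CPM in WT NK cells, with UMIs of all 12 and of 2 of the 12 listed genes, and their part in the ratio was not tested. Klra1 was in 100 of 594 WT and 10 of 67 Vsir-/- NK cells. Klra8 was in 58.1% of WT and 46.3% of Vsir-/- cells, with 7.97 and 5.16 UMIs per positive cell. Klra4 was in 42.3% and 43.3%, with 8.26 and 10.2 UMIs per positive cell, and Klra9 in 52.4% and 50.7%, with 5.29 and 5.38.

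Among NK, EM-like CD8+ T, and EM-like CD4+ T cells, the EM-like CD8+ cluster showed the largest difference between the libraries. Other clusters differed by a similar or larger amount. The log2 ratio of the sum was −4.10 (−4.32 to −3.89) in proliferating cells. WT and Vsir-/- levels were 86.0 and 1.19 CPM in M2-like R2 macrophages and 174 and 4.23 CPM in pDC. Neutrophils were at 50.4 and 1.29 CPM, and these Vsir-/- levels rested on few UMIs. Non-EM-like CD8+ T cells did not differ beyond counting error (0.46, −0.36 to 1.19). All 5 inhibitory members were lower in the Vsir-/- EM-like CD8+ cluster. Klra7 had 2 UMIs (12.0 CPM) against 878 in WT cells (log2 ratio −6.47, −9.52 to −4.61), Klra1 had 3 against 527 (−5.15, −7.43 to −3.59), Klra3 had 1 against 108 (−4.45, −9.76 to −1.94), and Klra9 had 9 against 386 (−3.11, −4.25 to −2.17). Klra6 had no UMI against 170, and the upper limit of its log2 ratio was −3.20. The activating pair did not differ beyond counting error, with 9 UMIs against 21 (1.09, −0.22 to 2.27). The sum was thus at 2539 CPM in WT mice against 145 CPM (−4.13, −4.78 to −3.56), and the share of cells with any Ly49 UMI was 79.2% (156 of 197) and 25.0% (7 of 28), or 68.6% and 10.7% after thinning.

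Of the 6 members with at least 20 UMIs in this cluster, 5 were at least 2-fold lower and 1, Klra8, was higher, where 9.98% of 5521 genes were lower and 6.03% were higher. The 5 passed the filter through their WT counts, and the 6 UMIs of Klra8 in Vsir-/- mice were all in 1 cell. That cell held 13 of the 24 Ly49 UMIs of the Vsir-/- cluster, and without the cell with the most Ly49 UMIs in each library the log2 ratio of the sum was −5.18. The other 6 positive Vsir-/- cells held 1 to 3 UMIs each, always of a single member. Kidney tubule transcripts were at 1548 CPM in this Vsir-/- cluster (11 of 12 listed genes with a UMI) and 1.21 CPM in WT mice (1 of 12), and their part in the difference was not tested.

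The 2 libraries also differed in what kind of cell filled the EM-like clusters. Cells with a T cell transcript and a UMI of Ncr1 or Klrb1c, genes typical of NK cells, were 128 of 197 (65.0%) EM-like CD8+ cells in WT mice and 4 of 28 (14.3%) in Vsir-/- mice. In WT mice, these 128 cells had 3283 CPM of Ly49 transcripts and 93.0% of them had at least 1 UMI, whereas the 69 cells without Ncr1 or Klrb1c had 1037 CPM and 53.6%. In the cells without the NK genes, the Vsir-/- level was 146 CPM (24 cells), and the log2 ratio was −2.83 (−3.55 to −2.19) in place of −4.13. In these cells, Klra7 had 102 WT and 0 Vsir-/- UMIs. With the further condition of a Cd8a or Cd8b1 UMI, the levels were 748 and 41.4 CPM (54 and 12 cells, 3 UMIs in the latter). The 4 Vsir-/- cells with the NK genes had 3 UMIs (137 CPM). The Vsir-/- level was thus the lower one in each of these groups of cells, but it rested on few UMIs. Of the 21 UMIs in Vsir-/- cells without the NK genes, 13 were in 1 cell.

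EM-like CD4+ T cells were divided in the same way. The sum was 419.6 CPM in WT mice and 139 CPM in Vsir-/- mice (log2 ratio −1.60, −1.81 to −1.39), and 4 of the 5 members with at least 20 UMIs were at least 2-fold lower and 0 higher, where 5.41% of 9751 genes were lower and 10.4% higher. Cells with a T cell transcript and Ncr1 or Klrb1c were 39.9% of WT cells (195 cells) and 12.7% of Vsir-/- cells (31 cells). Within them, the Ly49 level did not differ beyond counting error, at 668 CPM in WT mice and 593 CPM in Vsir-/- mice (−0.17, −0.45 to 0.09), and 48.2% and 64.5% of the cells were positive. Among members with at least 20 UMIs, the largest difference there was for Klra9 (233 and 98.8 CPM, log2 ratio −1.24, −1.92 to −0.62). In cells without the NK genes, the levels were 244 CPM (289 cells) and 60.3 CPM (212 cells), with a log2 ratio of −2.02 (−2.38 to −1.67). The 5 inhibitory members had log2 ratios from −2.67 (Klra1) to −1.23 (Klra3) in these cells. The share of all genes past 2-fold was not counted in either group of cells. Whether the ratios of the groups of cells differ from each other was not tested.

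**Figure D3:**
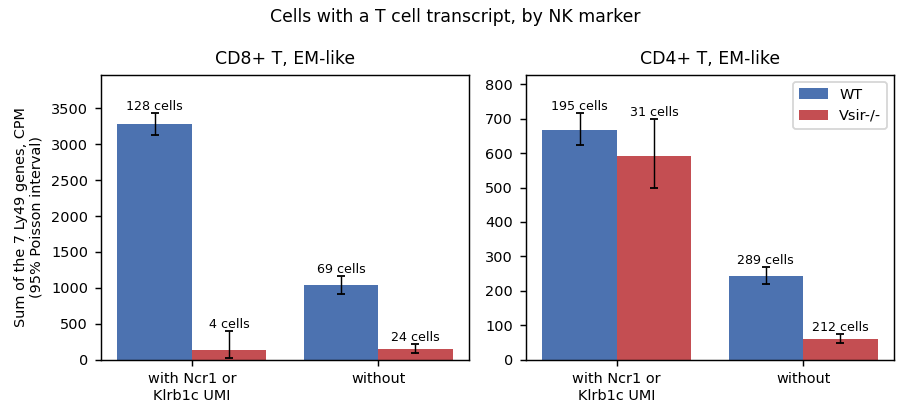
Summed level of the 7 Ly49 genes (CPM, exact Poisson intervals) in EM-like CD8+ (left) and EM-like CD4+ (right) cells with a T cell transcript, divided by a UMI of Ncr1 or Klrb1c, for WT (blue) and Vsir-/- (red) mice, with the number of cells above each bar. In the CD4+ cluster the cells with NK genes were at 668 and 593 CPM, and in the other 3 groups the WT level was higher.

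At the level of single cells, most NK cells held transcripts of several members. In WT mice, 531 of 594 NK cells (89.4%, interval 86.6 to 91.8) had at least 1 and 462 (77.8%) at least 2 of the genes, with a median of 3 genes per cell, and 1 cell had all 7. In Vsir-/- mice, 56 of 67 NK cells (83.6%, 72.5 to 91.5) had at least 1 and 49 (73.1%) at least 2, with a median of 2. After thinning to 1000 UMIs, the shares were 77.4% and 73.1% for at least 1 gene and 56.0% and 43.3% for at least 2. The intervals of the libraries overlapped for each of these 4 shares, the last ones by the least (51.9% to 60.1% and 31.2% to 56.0%).

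Activating and inhibitory receptors were usually found in the same NK cell. Of WT NK cells, 66.3% had UMIs of both kinds, 20.9% of inhibitory receptors only, 2.19% of activating receptors only, and 10.6% of neither. The Vsir-/- shares were 61.2%, 22.4%, 0%, and 16.4%, where the interval of 0 of 67 cells reaches 5.36%. Of WT EM-like CD8+ T cells, 73.6% had inhibitory receptors only and 3.55% had both, and of Vsir-/- cells 17.9% and 3.57%.

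Most pairs of members were found together in more cells than the product of their shares gives. In WT NK cells thinned to 1000 UMIs (580 cells), the ratio of observed to expected cells ranged from 0.88 to 2.23 over the 21 pairs, with a median of 1.28. The counting interval lay above 1 for 6 pairs and below 1 for 0. Klra4 and Klra8, the activating pair, were together in 93 cells against 67.8 expected (ratio 1.37, 1.11 to 1.68), and Klra6 and Klra7 in 22 against 12.4 (1.77, 1.11 to 2.69). In WT EM-like CD8+ T cells, the interval lay above 1 for 3 pairs, formed by Klra1, Klra6, and Klra7 among themselves, with Klra1 and Klra7 in 51 cells against 29.8 expected (1.71, 1.27 to 2.25). Before thinning, the WT cells of this cluster with Ncr1 or Klrb1c held 489 of 527 Klra1 UMIs and 776 of 878 Klra7 UMIs. They also held 155 of 170 Klra6 UMIs. Pairs were not counted within such groups of cells, and the part of this mixture in the ratios was not tested. In the 67 Vsir-/- NK cells, no interval left 1.

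**Figure D4:**
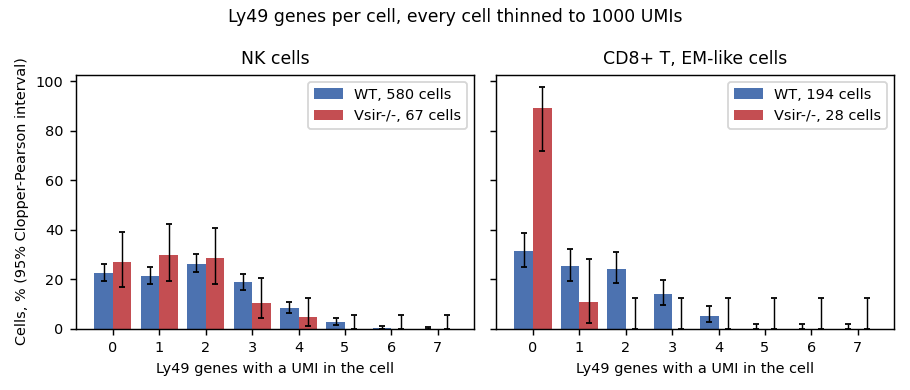
Share of cells (%, exact Clopper-Pearson intervals) by the number of Ly49 genes with a UMI, after thinning every cell to 1000 UMIs, in NK cells (left) and EM-like CD8+ T cells (right) of WT (blue) and Vsir-/- (red) mice. Of the 28 Vsir-/- EM-like CD8+ cells, 25 had none, against 61 of 194 WT cells.

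The signaling partners of the receptors, like most genes, were mostly within 2-fold between the libraries. In NK cells, 0 of 13 partners (adaptors, kinases, and phosphatases) differed by at least 2-fold, where 7.01% of all genes were lower and 9.86% higher. The median log2 ratio of Vsir-/- to WT was −0.30 over the partners and 0.07 over all genes. Tyrobp, which encodes DAP12, the adaptor of the activating receptors, was at 2906 CPM in WT mice and 2221 CPM in Vsir-/- mice (−0.39, −0.48 to −0.30), and Hcst (DAP10) at 670.5 and 408 CPM (−0.72, −0.93 to −0.51). In EM-like CD8+ T cells, 1 of 12 partners with at least 20 UMIs was lower and 0 higher, where 9.98% of all genes were lower and 6.03% higher. The lower partner was Tyrobp, at 679 CPM in WT mice (559 UMIs) and 114 CPM in Vsir-/- mice (19 UMIs, log2 ratio −2.57, −3.31 to −1.91). The other 11 tested partners included Lck at 479.8 and 602 CPM (0.33, 0.00 to 0.65) and Ptpn6, which encodes the phosphatase SHP-1, at 135 and 108 CPM (−0.31, −1.12 to 0.41). Of the MHC class I genes H2-D1, H2-K1, and B2m, 0 of 3 differed by 2-fold in either cluster, beside the same shares over all genes. H2-K1 was at 3466 and 3018 CPM in NK cells.

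Cells with and without a Ly49 UMI within 1 cluster and library were then compared for genes that are no members. In WT NK cells (531 with, 63 without, medians of 5476 and 5635 UMIs per cell), 3 of 10 tested genes of a list for immature NK cells and ILC1 were at least 2-fold higher in cells with a Ly49 UMI and 1 was lower, where 4.22% of 6450 genes were higher and 1.61% lower. The higher ones were Xcl1, a chemokine that attracts dendritic cells, at 450.0 and 49.3 CPM (log2 ratio 3.19, lower limit 2.54), Ctla2a at 224 and 59.7 CPM (1.91, lower limit 1.32), and Il7r at 32.0 and 13.0 CPM with 5 UMIs in the latter. The lower one was Itga1 (CD49a), which marks tissue-resident cells, at 20.8 and 54.5 CPM. Of 10 NK maturation genes, 0 passed the limit in either direction, and their median was −0.30, with Gzma (granzyme A) at 15270 and 18366 CPM and Cx3cr1 at 244 and 462 CPM (−0.92). Among all genes tested, the 5 with the highest ratio were Zfhx3, Crtam, Khdc1a, Ms4a4c, and 2310022A10Rik, each with 0 or 1 UMI in the 63 cells without. Of the 13 signaling partners, 0 differed by 2-fold.

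In WT EM-like CD8+ T cells (156 with, 41 without, medians of 3906 and 3830 UMIs), the contrast was larger for some genes. Of 11 tested genes of a list for memory and regulatory CD8+ T cells, 4 were at least 2-fold higher and 0 lower, where 3.58% of 2485 genes were higher and 0.885% lower. Ikzf2 (Helios), a transcription factor of regulatory T cell subsets, was at 468 CPM with and 51.3 CPM without (log2 ratio 3.19, lower limit 2.24). Cd7 was at 406 and 57.0 CPM (2.83) and Cd44 at 92.6 and 34.2 CPM (1.44). Xcl1 had 121 UMIs against 0 (lower limit 3.13). Ccl5 (31742 and 33726 CPM), Nkg7, and Tbx21 stayed within 2-fold. The other genes among the 5 highest were Ccl9, Fcer1g at 1466 and 108 CPM (3.76, lower limit 3.11), which encodes the Fc receptor γ chain, and Lat2. Of the 8 genes of a list for naive CD8+ cells, 3 were tested and 0 passed the limit. Cells with Ncr1 or Klrb1c were more often Ly49-positive in this cluster, so cells with and without a Ly49 UMI also differ in NK genes. The part of such cells in these contrasts was not tested.

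In the EM-like CD4+ cluster, cells with a Ly49 UMI shared some of these features in both libraries. In WT mice (140 with, 349 without, medians of 5438.5 and 4680 UMIs), 4 of 14 memory and regulatory genes were at least 2-fold higher and 0 lower, where 0.602% of 5983 genes were higher and 2.46% lower. Among Vsir-/- cells (33 with, 211 without, medians of 6601 and 5781 UMIs), 5 of 12 tested genes were higher and 0 lower, where 3.02% of 4369 genes were higher and 4.72% lower. The 4 genes Ikzf2 (538 and 242 CPM in WT mice, 281 and 113 CPM in Vsir-/- mice), Ccl5 (5697 and 2463 CPM, 8050 and 2535 CPM), Klrd1 (763 and 345 CPM, 474 and 91.1 CPM), and Cd7 (994 and 459.7 CPM, 489.8 and 95.6 CPM) were higher in both. Klre1, another NK receptor gene, was among the 5 highest in both libraries, at 585 and 172 CPM in WT mice and 434 and 39.9 CPM in Vsir-/- mice. Of the list for naive CD8+ cells, 1 of 8 tested genes was higher and 0 lower in WT mice, with a median log2 ratio of −0.01. In Vsir-/- mice, 4 of 6 tested genes of that list were higher and 1 lower. Their median was 1.09, above the 0.78 of the memory and regulatory list. The shares over all genes are those given above. Here too, cells with Ncr1 or Klrb1c were more often Ly49-positive, and their part in these contrasts was not tested.

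In non-EM-like CD8+ T cells of WT mice (55 with, 604 without), 4 of 12 tested memory and regulatory genes were at least 2-fold higher and 1 was lower, where 1.54% of 6603 genes were higher and 2.79% lower. The higher ones were Il2rb, the receptor chain that binds IL-2 and IL-15 (286 and 127 CPM, log2 ratio 1.18), Eomes (86.5 and 31.8 CPM, 1.44), Cxcr3 (75.9 and 21.4 CPM, 1.83), and Ccl5 (1250.1 and 449.9 CPM, 1.47). Ikzf2 was the lower one, at 12.4 and 30.9 CPM (−1.32), the opposite direction to that in both EM-like clusters. The 55 cells held 566366 UMIs of all genes, so the 12.4 CPM rested on few Ikzf2 UMIs. After thinning, the share of Ly49-positive cells in this cluster was also close to that of B cells, as given above. Among the 5 genes with the highest ratio were Gzmm (77.7 and 18.2 CPM), Gzma (125 and 30.0 CPM), Ctla2a (408 and 99.9 CPM), and Cxcr3. The naive gene Tcf7 (422 and 471 CPM) stayed within 2-fold. Cells with a Ly49 UMI were deeper here, with medians of 9714 and 6951 UMIs, and the part of depth in choosing them was not tested.

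Across the 29 sums of a cluster in 1 library with at least 20 cells, the correlations of the members with each other and with other genes are given as a description. Klra4 and Klra8 followed each other most closely (Pearson r = 0.96 of log2(CPM + 1)), and Klra4 and Klra6 least (r = 0.45), while Klra8 also followed the inhibitory Klra9 and Klra7 (both r = 0.85). The genes most like Klra8 were Serpinb9b (r = 0.90), Prf1 (perforin, r = 0.89), and Gzma (r = 0.88), and those most like Klra4 were Serpinb9b, Khdc1a, and Cma1. The genes most like Klra7 were Klre1 (r = 0.95), Ncr1 (r = 0.95), and Samd3 (r = 0.94), and those most like Klra1 were Klrc1 (NKG2A), Cd160, and Ncr1, all at r = 0.90. Klra3 was most like Klrb1c, Ncr1, and Samd3, Klra6 most like Samd3, Cd160, and Klrc1, and Klra9 most like Gm33782, Ccl5, and Klre1. Of these 21 genes, 12 were kept with log2(CPM + 10) and 8 with WT clusters only. The points share their libraries and differ in depth, and no p is given.

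The other Klra genes in the matrix had other patterns. Klra2 had 1083 UMIs in the WT and 713 in the Vsir-/- library, and in M2-like R2 macrophages it was found in 58.6% of WT cells (155 CPM) and 58.3% of Vsir-/- cells (138 CPM). Klra17 had 133 UMIs in WT mice, 108 of them in neutrophils. Klra5 had 243 and 43 UMIs, with 87 WT UMIs in NK cells and 59 in the EM-like CD8+ cluster. Klra10 had 29 and 0, with 21 of the 29 in NK cells.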

How the data were processed

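Single cells of the kidney were profiled with the 10x Genomics 3′ kit (version 3.1) after digestion in liberase (0.2 mg/ml, 37°C, 30 minutes). The deposited counts are whole UMIs per gene and cell, which the submitters' processing notes tie to Cell Ranger 3.1.0, Seurat 3.2.3, and R 4.0.3. The study's methods state a filter to genes in at least 5 cells and cells with at least 200 UMIs and at most 10% mitochondrial UMIs. In the deposited matrix, the lowest cell had 501 UMIs, the highest mitochondrial share was 10%, and 2321 of 20299 genes had a UMI in fewer than 5 cells, 521 of them in none. The submitters' processing notes name the build mm9. The authors' table gives the library, the cluster, and a deposited percent of mitochondrial UMIs for every cell, used here for the alternative limit of 5%. The serum dose was 2 µl/g per the labels, and the study's methods state a higher dose. Doublets were not removed here, and their treatment by the authors is not given in the sources used here.

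UMIs were summed per cluster and library without filters on cells (WT 32799550 UMIs, Vsir-/- 18601189 UMIs), with a pseudocount of 0.5 UMIs for counts of genes past 2-fold among genes with at least 20 UMIs (50 UMIs in comparisons of cells with and without a Ly49 UMI). The filter counted the UMIs of both groups compared, so a gene with few UMIs in 1 group could pass through the other group. Thinning to 1000 UMIs left out 167 WT and 78 Vsir-/- cells. The members and lists were chosen with earlier results of these data known. Named genes were all members, every other Klra symbol, examples of the fixed lists, and the 3 genes most like each member among genes with at least 100 UMIs. Genes among the 5 with the highest ratio in each comparison of cells were also named, though not all 5 in every comparison. Examples of lists that are not the most abundant of their list, and the cell groups by Ncr1, Klrb1c, Cd4, and Cd8, were chosen after their values were seen. A gene of the list for naive cells is not reported here. The calculations were tested on simulated data and used Python 3.11.15, numpy 2.4.6, scipy 1.17.1, pandas 2.3.3, and matplotlib 3.10.9. Alternatives changed the cells kept, their weighting, the denominator, the depth, and the limit for detection.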

Additional observations from a re-analysis of the deposited data

How the results depend on the processing

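No paired analysis was possible because each genotype has 1 library and no test was made, and for the same reason no library could be left out. Of 59 alternative values, 39 stayed within the counting interval of the main value or within 1.5 times the main count, 20 moved, and none reversed. The log2 ratio of summed Ly49 UMIs in NK cells (−0.60) was −0.39 as a mean over single cells, −0.34 after thinning to 1000 UMIs, and −1.31 in cells with no T cell transcript. For the EM-like CD8+ cluster (−4.13) this ratio was −5.18 without the cell with the most Ly49 UMIs in each library and −2.83 in cells with a T cell transcript and no Ncr1 or Klrb1c UMI, a choice made after seeing the data. The share of WT NK cells with a Ly49 UMI (89.4%) was 77.4% and 84.4% after thinning to 1000 and 2000 UMIs, 83.8% with at least 2 UMIs of a member required, and 94.4% in cells with no T cell transcript. The share of WT EM-like CD8+ T cells (79.2%) was 68.6% after thinning to 1000 UMIs, 70.1% with at least 2 UMIs, and 48.1% in cells with Cd8a or Cd8b1 and no Ncr1 or Klrb1c UMI. The share of NK cells with at least 2 of the genes was 56.0% and 68.5% in WT mice and 43.3% and 58.5% in Vsir-/- mice after thinning to 1000 and 2000 UMIs, and 68.4% in WT mice with at least 2 UMIs of each. Of EM-like CD4+ members, 1 in place of 4 was at least 2-fold lower among cells with Ncr1 or Klrb1c, where the share over all genes was not counted. Of the 21 genes named as most like a member, 12 were kept with log2(CPM + 10) and 8 with WT clusters only. The Vsir-/- EM-like CD8+ cluster has 28 cells, and the intervals cover counting error only, not differences between mice.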
